A study of Mus musculus with 4 samples.

Results

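The transcripts described here are 7 probes of a custom mouse expression array whose primary identifier is a cDNA clone accession beginning with AK. They were selected on their brightness: a probe was taken when it was well above background on all 4 arrays and its mean log2 value over the 4 arrays in the deposited table was above 2. Of 61307 probes on the array, 121 carry such a clone identifier (117 different clones), 43 of these were well above background on all 4 arrays, and 7 met the brightness limit. A further 63 clone probes were well above background on no array and 15 on some arrays. The level over all arrays chose the 7 probes. The difference between the groups was not itself a criterion and was tested, but a limit on all 4 arrays tends to leave out clones that are bright in 1 group alone, so the choice was not free of that difference.

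The arrays read RNA of C3H10T1/2, an immortalised line of mouse embryo fibroblasts that grows as a contact-inhibited monolayer and forms foci when it is transformed by carcinogens. The 3MC+TPA group (2 arrays) held cells given 3-methylcholanthrene, a polycyclic aromatic hydrocarbon that damages DNA, at 2.5 µg/ml for 2 days, then plain medium for 4 days. They next received the phorbol ester tumour promoter 12-O-tetradecanoylphorbol-13-acetate at 100 ng/ml over 2 weeks and grew for 4 weeks in normal medium. The control group (2 arrays) held cells of the same line cultured for 6 weeks. Whether replicate arrays stand for separate flasks is not in the labels, so a p-value here weighs a difference against the array-to-array spread alone, and that spread may be technical. In RNA of whole cultures, fewer cells of a type and less RNA per cell cannot be told apart. All 4 arrays lay on 1 slide, with each group in neighbouring positions, so position and group cannot be told apart.

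Between 32125 and 32512 spots per array were well above background, and the number of arrays, 2 per group, limits the precision. All 10 fibroblast markers looked up, among them Col1a1 and Vim, were well above background on all 4 arrays. The count was 0 of 4 for endothelial, 3 of 6 for epithelial, 3 of 6 for leukocyte and 2 of 4 for skeletal muscle markers. Over the whole array, 29207 of 61307 probes were well above background on all 4 arrays. Counts near that share do not show that such cells were present. No spot was saturated.

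The clone identifiers come from projects that sequenced full-length complementary DNA from many mouse tissues before all genes had curated transcripts. A probe drawn from such a clone may read a known gene, an alternative end of a known gene, a processed copy of a gene elsewhere in the genome, or a non-coding transcript. Probe brightness depends on the probe as well as on the RNA, so levels are compared here only within a probe, between arrays.

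Each of the 7 probes turned out to be tied to a described product. Their annotations name palladin, a scaffold of actin bundles, for a clone from embryonic lung (gene name Palld), and a product similar to ribosomal protein L27a, a part of the large ribosomal subunit, for a clone from the midbrain (B230369F24Rik). A testis clone reads Polr3c, a subunit of RNA polymerase III, the enzyme that transcribes transfer RNA genes. An embryonic heart clone reads Ppfia1, which encodes liprin alpha 1, a scaffold that binds receptor tyrosine phosphatases of the LAR type and sits beside focal adhesions. The product of a dendritic cell clone (AK154958) is given as synaptopodin, an actin-binding protein of dendritic spines and kidney podocytes. Thymus clones gave the last pair: a homolog of prothymosin alpha, a very acidic nuclear protein bound to linker histones (OTTMUSG00000007209), and kalirin (Kalrn), an exchange factor for the GTPases Rac1 and RhoG.

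A lack of RefSeq records did not describe these probes. All 7 list at least 1 model RefSeq transcript among their cross-references, although 0 list a curated one. In a RefSeq gene table of assembly GRCm38.p6, 5 of the 7 gene names were found, and 4 of these, Palld, Polr3c, Ppfia1 and Kalrn, had curated messenger RNA records. B230369F24Rik was listed there as a long non-coding RNA on chromosome 1, while Rpl27a itself is listed on chromosome 7. Palld is on chromosome 8, Polr3c on chromosome 3, Ppfia1 on chromosome 7 and Kalrn on chromosome 16. No coordinates are given, because the array files were drawn on another build (mm9).

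The first 30 of the 60 bases of 5 probes are shown, 5′ to 3′ as the array files give them, because the probe and not the gene name defines what was measured. No base is in capitals, since no motif is marked.
Palld: gaacgccagcgcttccaccagcctactcct
B230369F24Rik: gttcgatcaagttactacaaagttctgggc
Polr3c: cctattcctgactttcccagaggctcatga
Ppfia1: tctgttaatcgtttgtgaccctcccgatta
Kalrn: atttaaagaaacccttgtggatgaagtcag
None of the other probes on the array shared a run of 20 or more identical bases, on either strand, with any of the 7 probes. Their GC content lay between 35% for OTTMUSG00000007209 and 53.3% for Palld. Whether the 7 probes hybridise to transcripts of related loci was not tested.

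None of the 7 clone transcripts passed the test between exposed and control cells. Each value is the log2 processed signal of a probe with the array's own 75th percentile (log2) taken off. With limma and Benjamini-Hochberg adjustment over all 32107 probes tested, 0 of 7 were called at an adjusted p under 0.05, and 1, Ppfia1, had an unadjusted p under 0.05. The background was 15.5% of all tested probes called in either direction, 7.44% higher and 8.05% lower in 3MC+TPA cells. Among 5427 RefSeq probes that met the same brightness rule, 12% were called, and among the 43 tested clone probes that did not meet it, 25.6%. These 43 tested probes are not the same set as the 43 clone probes well above background on all 4 arrays. Some of the tested ones entered through 1 group alone, where a call supports nothing, so the 25.6% and the 12% are not like for like. With 7 probes, a count of 0 and a share of 15.5% lie about 1 called probe apart, so the count says little about the clones as a class. The median log2 change of the 7 was -0.05, beside 0.01 over all tested probes.

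**Figure D1:**
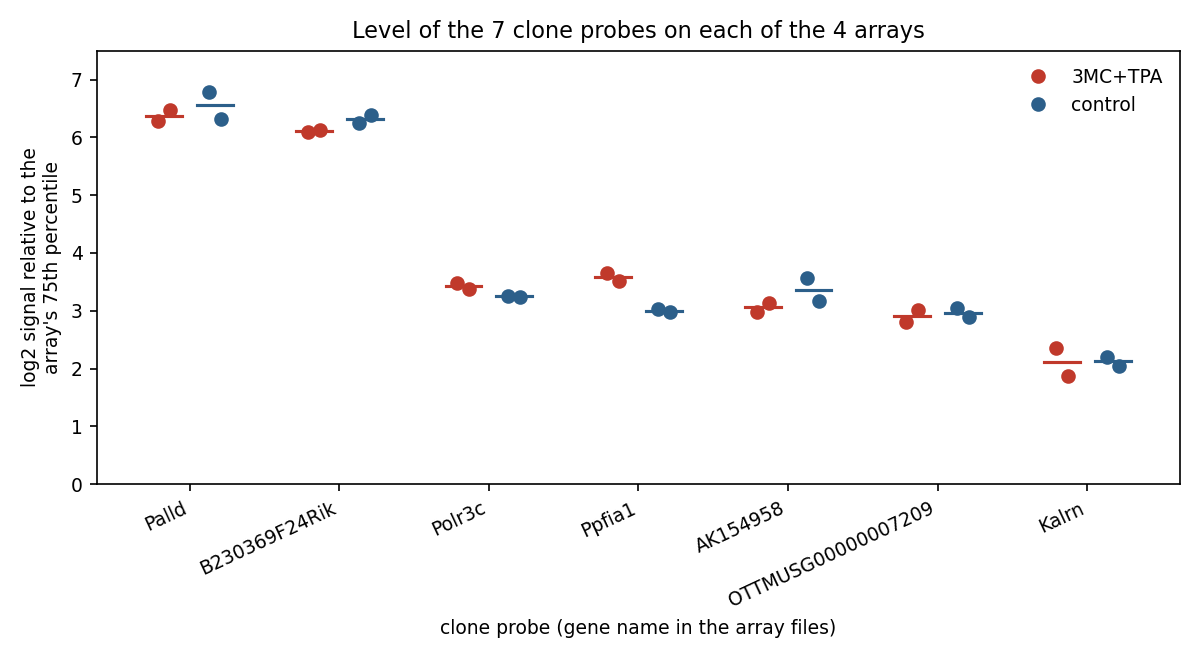
Log2 signal relative to the 75th percentile of the array (vertical axis) for the 7 clone probes, with 3MC+TPA arrays (red) left of control arrays (blue) for each probe. Points are single arrays and lines are means of 2 arrays; the groups stand apart most clearly for Ppfia1, at 3.66 and 3.52 against 3.03 and 2.97.

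The actin scaffold palladin did not differ beyond the spread between arrays. The Palld clone probe read 6.28 and 6.48 on the 3MC+TPA arrays, against 6.78 and 6.32 on the control arrays, which are processed signals of 54219 and 66370 against 59392 and 47553. The groups overlapped, and the control arrays lay farther apart than the exposed ones. The log2 change was -0.18 ± 0.22 (SE, n = 2 per group; 95% interval -0.73 to 0.38; limma adjusted p = 0.62). A second probe from the same clone gave -0.09, the curated RefSeq probe of Palld -0.08 and a model RefSeq probe -0.46, and none of these was called. Proteins known to bind palladin at actin bundles were likewise read by 12 tested RefSeq probes, of which 0 were called, with a median of 0.26 and a range from -0.81 for Sorbs2 to 0.65 for Vasp. They include the actin crosslinkers Actn1 and Actn4 (0.25 and 0.33), the actin monomer binder Pfn1 (-0.20) and Lasp1, whose 4 probes ran from -0.14 to 0.47.

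The 3 tested probes with a pattern over the 4 arrays closest to that of the Palld clone were those of Acta2, smooth muscle actin alpha, the predicted locus Gm5276, and Actg2, smooth muscle actin gamma. Closeness was the root mean square difference of values centred on their own mean, 0.0073, 0.0117 and 0.0165 log2 units, over 32029 other probes. With only 4 values per probe, the nearest of so many probes are bound to lie close. Neither this list nor the closest patterns given below for other clones show shared regulation, which was not tested. Acta2 read 5.80 and 6.00 on the 3MC+TPA arrays, against 6.29 and 5.85 on the control arrays.

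The clone annotated as similar to ribosomal protein L27a, B230369F24Rik, read 6.10 and 6.14 on the 3MC+TPA arrays, against 6.25 and 6.39 on the control arrays. Both exposed values were below both control values, as happened in either direction for 63.9% of all tested probes, and 4 of the 7 clone probes had groups that did not overlap. The log2 change of -0.20 ± 0.16 (SE, n = 2 per group; 95% interval -0.60 to 0.20; limma adjusted p = 0.42) did not pass. The array also carries 16 probes to other loci described as L27a-like, mostly model transcripts of predicted genes. Of these, 0 were called, 13 had negative changes and 3 positive ones, and the range was -0.41 to 0.29 with a median of -0.20. Their median was -0.07 after quantile normalisation and 0.15 without scaling, where 14 of the 16 were positive. The curated Rpl27a probe gave 0.09 and was not called.

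Few other ribosomal protein probes were called. Of 116 tested RefSeq probes for 79 cytosolic ribosomal protein genes, 1 was called higher and 4 lower, beside 15.5% of all tested probes called in either direction. Of the 116, 92 had negative changes, with a median of -0.18 and a range of -0.87 to 1.38. The 4 lower probes read Rpl10 (-0.87), Rpl39 (-0.82) and Rpl36a (-0.73 on each of 2 probes), parts of the large subunit, with adjusted p between 0.028 and 0.038 (limma). Another probe of Rpl36a gave -0.28 and was not called. The 1 higher probe, for Rps15a, was well above background on the exposed arrays alone and entered the test only through them, at least 1.98-fold above the controls. The other Rps15a probe gave -0.28, and among probes well above background on all 4 arrays 0 were higher. The direction of this group depends on the scaling: the median was -0.02 after quantile normalisation and 0.17 without scaling, where the median of all probes was itself 0.36. The lower calls in this group also moved with the processing, to 16 with normexp background correction and 24 with an intensity trend in the prior variance. Over all tested probes, 20.3% and 20.5% were called in either direction in these 2 settings. With the replicate block, 0 were lower and 1 was higher, beside 13.2% of all tested probes called. None of the 4 lower probes passed when any 1 of the arrays was left out (adjusted p from 0.063 to 0.16).

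**Figure D2:**
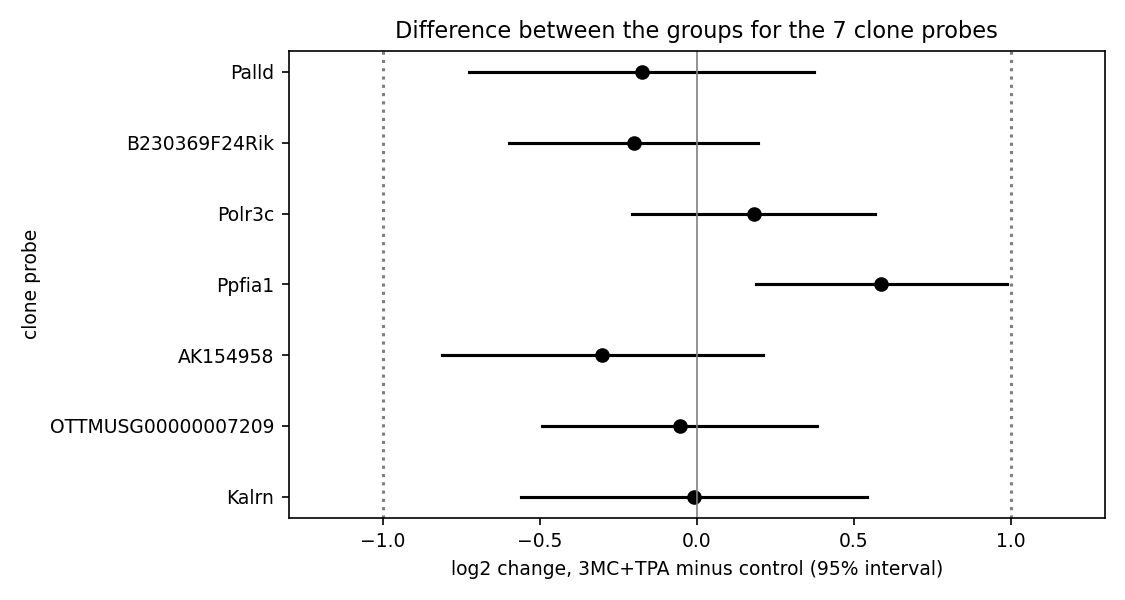
Log2 change, 3MC+TPA minus control (horizontal axis), of the 7 clone probes with its 95% interval from limma; dotted lines mark a 2-fold difference in either direction. All 7 intervals lie inside the 2-fold lines, from -0.81 to 0.99, and the interval of Ppfia1 alone leaves out 0.

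The liprin alpha 1 clone gave the largest difference among the 7. The Ppfia1 clone probe read 3.66 and 3.52 on the 3MC+TPA arrays, against 3.03 and 2.97 on the control arrays. Both exposed values were above both control values, and the gap between groups was wider than the gaps within them. The log2 change was 0.59 ± 0.16 (SE, n = 2 per group; 95% interval 0.19 to 0.99), or 1.50-fold, with an unadjusted p of 0.013 and a limma adjusted p of 0.067. It passed the threshold with normexp background correction, with an intensity trend in the prior variance and without scaling (adjusted p = 0.041, 0.029 and 0.017). The adjusted p was 0.10 with the replicate block, 0.12 with no filter on dim probes, and 0.13 to 0.21 with 1 array left out. Its change was positive under all 16 alternatives, from 0.52 to 0.94. The curated RefSeq probe of Ppfia1 read 0.10 and 0.04 on the 3MC+TPA arrays, against -0.37 and -0.36 on the control arrays, a log2 change of 0.43 ± 0.15 (SE, limma adjusted p = 0.12).

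Some probes of other liprins were called higher. Of 7 tested RefSeq probes for 4 liprin genes, the Ppfia1 probe just given among them, 2 were higher and 0 lower. All 7 changes were positive, with a median of 0.52. Ppfia3, liprin alpha 3, known mainly from synapses, read -1.76 and -1.55 on the 3MC+TPA arrays, against -3.19 and -4.20 on the control arrays, a log2 change of 2.04 ± 0.35 (SE, limma adjusted p = 0.022). It was not called in 5 of 16 alternatives, among them those without 3MC+TPA array 1 or without 3MC+TPA array 2. Its change ran from 1.10 to 2.55 over these alternatives, so its size depends on the processing. Ppfibp2, liprin beta 2, rose by 0.93 ± 0.16 (SE, adjusted p = 0.022) on 1 probe, while its second tested probe gave 0.84 (adjusted p = 0.054). The 3 probes of Ppfibp1, liprin beta 1, gave 0.41, 0.40 and 0.52 and were not called.

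Among LAR-type receptor phosphatases and cytoplasmic partners of liprins, 7 of 13 tested RefSeq probes were called higher and 0 lower, with a median of 0.90. Of the 7, 3 (2 of Ptprd and 1 of Kank1) were well above background on the exposed arrays alone and entered the test only through them, so they had to differ and support nothing. When the test was limited to probes well above background on all 4 arrays, 5 of 10 were higher, with a median of 0.83, beside 16.7% of all probes called in either direction. Ptprd, a receptor phosphatase of the LAR type best known as a synaptic adhesion molecule, read -2.71 and -2.65 on the 3MC+TPA arrays, against -6.89 and -6.97 on the control arrays, where it was not well above background. It was at least 4.18-fold higher on that probe and at least 3.37-fold higher on a second one. Such a bound sets the mean of the exposed arrays against, per control array, the higher of the dimmest value among probes well above background and the probe's own.

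Kank1, which links liprin to the talin of focal adhesions, rose by 1.23 and 1.26 on the 2 probes that every array measured above background (adjusted p = 0.011 and 0.024). The first missed the threshold when either exposed array was left out (adjusted p = 0.066 without array 1 and 0.065 without array 2). The second missed it when control array 2 or 3MC+TPA array 2 was left out (adjusted p = 0.055 and 0.083), and gave 0.46 with normexp background correction (adjusted p = 0.08). A further probe, dim in the controls, was at least 1.50-fold higher. Erc1, a scaffold that binds liprin alpha at the cell edge, rose by 0.90 and 0.92 on its 2 tested probes (adjusted p = 0.034 and 0.029). Over the alternative settings these changes ran from 0.76 to 1.25 and from 0.69 to 1.27, and neither probe was called in all of them. Ptprf, the LAR phosphatase itself, gave 0.77, 0.88 and 0.61 on 3 probes without a call, Git1 gave 0.55, and the 2 probes of Ptprs, also a LAR-type receptor, gave 0.03 and 0.02.

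These counts moved when single arrays were left out. Leaving out 3MC+TPA array 1 or 2 reduced the 7 called partner probes to 3 or 2, and leaving out control array 1 or 2 gave 9 or 4. The 2 called liprin probes became 0 when either 3MC+TPA array was left out, and 2 or 1 without control array 1 or 2. The partner probes had positive changes on all 13 in the main setting, on 12 with normexp background correction (6 called) and without 3MC+TPA array 1, and on 11 without control array 2. The 15.5% of all tested probes called is the background for both counts in the main setting, and 20.3% is that with normexp background correction. Neither share is the background with 1 array left out, since fewer probes were then called over the whole array too. The genes of these groups were listed after the clone probes were known, and the groups have no test of their own.

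**Figure D3:**
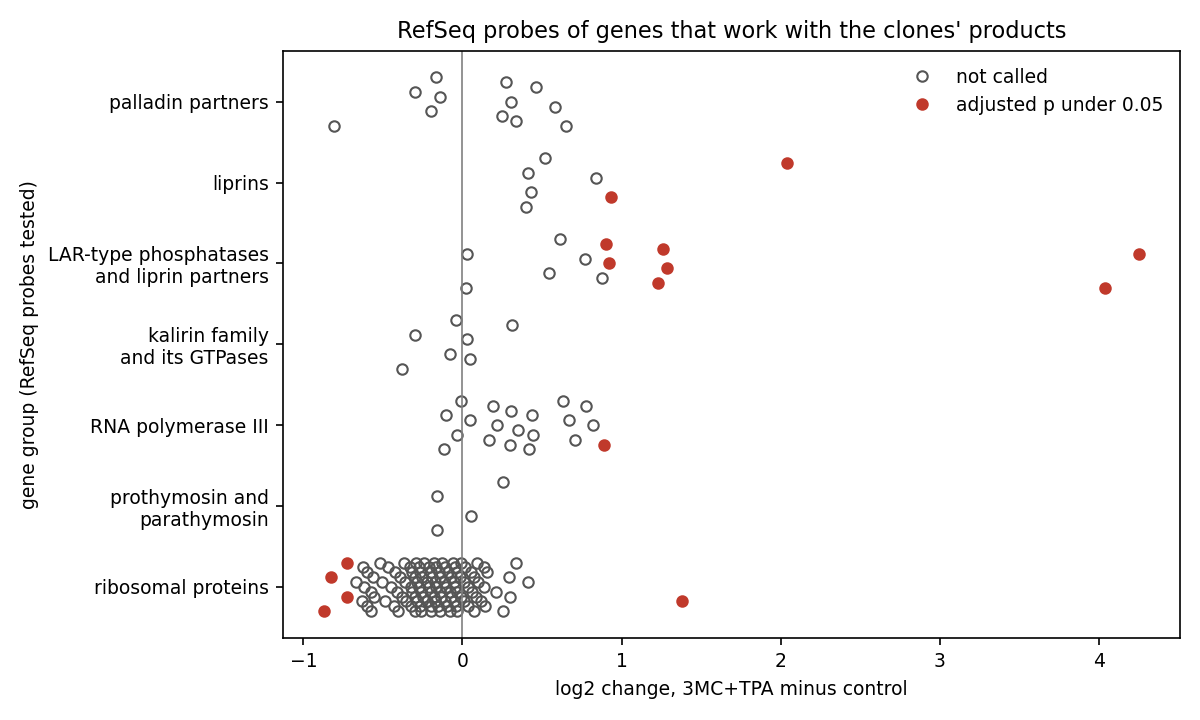
Log2 change, 3MC+TPA minus control (horizontal axis), of tested RefSeq probes in gene groups that work with the clones' products, 1 point per probe, with vertical scatter only to separate points; filled red points have an adjusted p under 0.05. Called probes are 2 of 7 liprins, 7 of 13 LAR-type phosphatases and liprin partners, and 1 of 20 for RNA polymerase III. Of 116 ribosomal protein probes, 1 is called higher and 4 lower. Of the 7 called partner probes, 3 were well above background on the exposed arrays alone, among them both points beyond 4 (Ptprd).

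The 3 probes whose pattern was closest to that of the Ppfia1 clone read Vasp, the actin polymerisation factor of focal adhesions, LOC100039021, and a non-coding transcript derived from the clone AK043962, with root mean square differences of 0.0095, 0.0123 and 0.0148. Vasp read 2.26 and 2.10 on the 3MC+TPA arrays, against 1.62 and 1.58 on the control arrays. Its log2 change of 0.58 had a limma adjusted p of 0.069 and, like that of the Ppfia1 clone, did not pass.

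The RNA polymerase III subunit clone differed by less. The Polr3c clone probe read 3.47 and 3.38 on the 3MC+TPA arrays, against 3.25 and 3.25 on the control arrays. The groups did not overlap, and the log2 change was 0.18 ± 0.15 (SE, n = 2 per group; 95% interval -0.21 to 0.57; limma adjusted p = 0.46). The curated Polr3c probe gave -0.03 and was not called. Among subunits and regulators of this polymerase, the Polr3c probe included, 1 of 20 tested RefSeq probes was higher and 0 lower. The share called over all tested probes was 15.5% in either direction. The median of the 20 was 0.33, with 16 positive changes.

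The 1 probe called higher was for Polr3g, a subunit with a close paralog, Polr3gl. It read -1.61 and -1.72 on the 3MC+TPA arrays, against -2.54 and -2.57 on the control arrays, a log2 change of 0.89 ± 0.15 (SE, adjusted p = 0.022). It was not called when any 1 of the 4 arrays was left out (adjusted p from 0.051 to 0.10). A second Polr3g probe gave 0.77 (adjusted p = 0.13) and Polr3gl 0.30. The repressor of the polymerase, Maf1, gave 0.04, and the initiation factor genes Brf1 and Bdp1 gave 0.17 and, on 3 probes, 0.35 to 0.67, none called.

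The synaptopodin clone had the largest negative value of the 7. AK154958 read 2.99 and 3.14 on the 3MC+TPA arrays, against 3.57 and 3.16 on the control arrays. The groups touched without overlap, 3.14 against 3.16, and control array 1 alone stood high. The log2 change was -0.30 ± 0.20 (SE, n = 2 per group; 95% interval -0.81 to 0.21; limma adjusted p = 0.35). The tested RefSeq probe of Synpo gave 0.14 ± 0.36 (SE), the opposite sign, and a second Synpo probe was too dim to test. In the synaptopodin family, Synpo2, an actin-binding protein of muscle Z-discs also called myopodin, fell, at -4.27 and -3.84 on the 3MC+TPA arrays against -1.43 and -1.73 on the control arrays (log2 change -2.48 ± 0.22, SE; limma adjusted p = 0.0037). This call held with each array left out in turn (adjusted p from 0.0044 to 0.024). The 3 closest patterns to that of AK154958 were those of Ifrg15 (0.016), the growth factor gene Igf1 (0.0187) and a non-coding transcript derived from the clone AK040668 (0.02).

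The prothymosin alpha homolog and kalirin differed least. OTTMUSG00000007209 read 2.80 and 3.02 on the 3MC+TPA arrays, against 3.04 and 2.88 on the control arrays, with overlapping groups (log2 change -0.05 ± 0.17, SE, n = 2 per group; 95% interval -0.49 to 0.38; limma adjusted p = 0.86). Of 9 probes to other loci described as prothymosin alpha, 0 were called, with a range of -0.15 to 0.15. The 2 curated Ptma probes gave -0.16 and 0.05, and the 2 probes of the related Ptms, parathymosin, gave -0.16 and 0.25, none called. The Kalrn clone probe read 2.35 and 1.88 on the 3MC+TPA arrays, against 2.20 and 2.04 on the control arrays, so the 2 exposed arrays enclosed both controls.

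Its log2 change was -0.01 ± 0.22 (SE, n = 2 per group; 95% interval -0.56 to 0.54; limma adjusted p = 0.98). The curated Kalrn probe gave -0.38 and a locus described as similar to kalirin -0.41, neither called. Trio, the paralog of kalirin, gave 0.05, and its target GTPases Rac1, Rhoa and Rhog gave between -0.30 and 0.31 on 5 probes, with 0 calls.

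**Figure D4:**
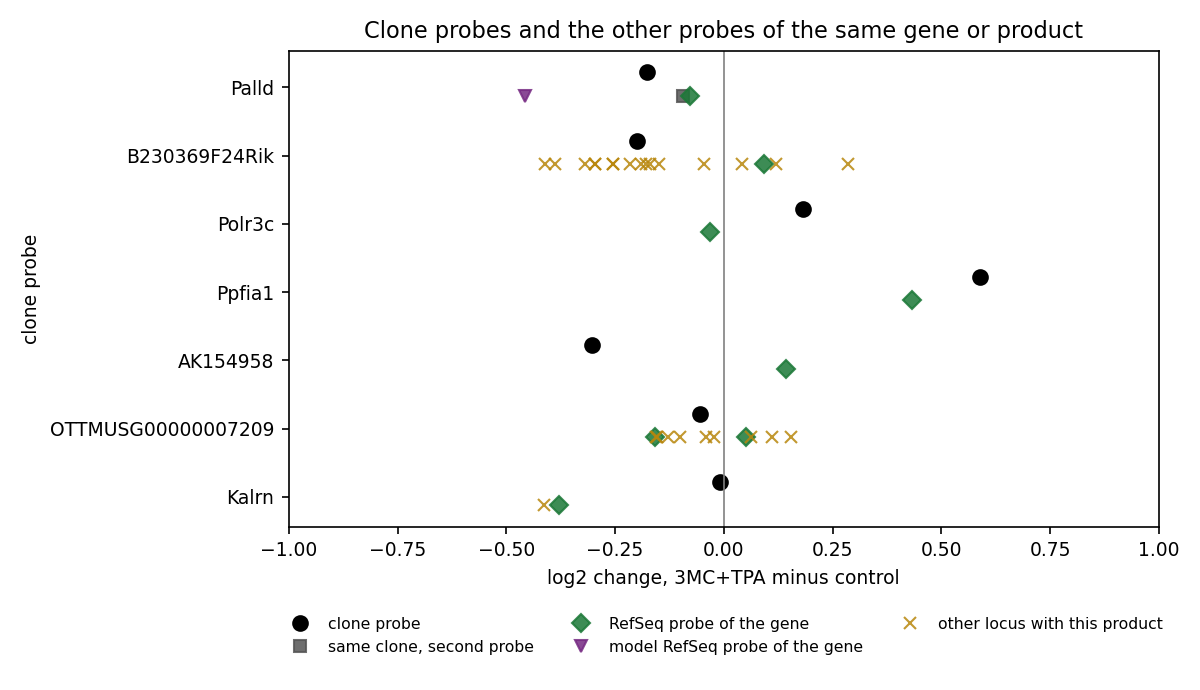
Log2 change, 3MC+TPA minus control (horizontal axis), of each clone probe (black circle) and of the tested probes for the same clone, gene or product (other symbols, as in the legend). Every symbol lies between -0.46 and 0.59; the clone and the RefSeq probe of Ppfia1 are both positive at 0.59 and 0.43, and those of AK154958 have opposite signs.

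Across the 4 clones that share a gene name with a curated RefSeq probe, 3 pairs had the same sign (Palld, Ppfia1 and Kalrn) and 1 did not (Polr3c). Of these RefSeq probes, 0 were called. Some of these changes lay within their SE of 0, so their signs say little. Examples are the Palld clone (-0.18 ± 0.22), the Kalrn clone (-0.01 ± 0.22) and the curated Polr3c probe (-0.03 ± 0.19). For the 3 clones named only by a product, 1 of 4 tested RefSeq probes of the product's gene had the clone's sign. The gap between replicate arrays of the 7 clone probes ranged from 0.04 to 0.48 on the 3MC+TPA arrays and from 0.01 to 0.46 on the control arrays.

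Of the 7 clones, 3 came from immune or blood cells, 2 from embryonic tissue, 1 from the nervous system and 1 from testis. The immune-cell clones gave log2 changes of -0.30, -0.05 and -0.01, the embryonic ones -0.18 and 0.59, and those from brain and testis -0.20 and 0.18.

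The brightness limit fell in a gap between probes. Just inside it, the mean levels in the deposited table were 2.12 for Kalrn, 2.94 for OTTMUSG00000007209 and 3.21 for AK154958. Just outside it lay a clone of Eif1a (AK139584) at 1.77, one of Csprs (AK156961) at 1.71 and one of 1810007M14Rik (AK007365) at 1.43. The Eif1a clone read 0.25 and 0.12 on the 3MC+TPA arrays, against 3.21 and 3.51 on the control arrays, and the Csprs clone 0.88 and 1.06 against 2.38 and 2.51. Since the limit was set on the mean of all 4 arrays, clones above it in 1 group alone could fall outside it, as the Eif1a and Csprs clones did.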

How the data were processed

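The 4 samples (2 exposed to 3MC and TPA, 2 controls) were hybridised in 1 colour (Cy3) to 60-base probes. The intensity of each spot was measured with Feature Extraction 10.7.3.1 from Agilent, per the file headers; its processed signal is background-subtracted and detrended, with substitute values for dim spots. The log2 values of the deposited table were made by the authors, and set against the scanner files they equal log2 of the processed signal minus a constant per array (within 0.01 for nearly all probes), uncentred; column medians were -4.39 and -4.35 for the 3MC+TPA arrays and -4.29 and -4.31 for the control arrays.

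The processed signal was put on a log2 scale relative to the 75th percentile over non-control spots, outlier spots were left out and spots of 1 probe averaged. A probe was tested when well above background on both arrays of at least 1 group. Groups were compared with limma 3.58.1 (lmFit, eBayes, 2-sided) in R 4.3.3, with Benjamini-Hochberg adjustment at 0.05. The fit was tested on simulated data. Other background corrections, scalings, filters, priors, tests and left-out arrays were tried. Named clone probes are all 7 members, the 3 probes next below the limit, and the 3 closest patterns for the largest rise, the largest fall and the brightest. The members and lists were chosen with earlier results of these data known; probes of the same genes, gene groups and their named genes were chosen after the member list. A product class word list that caught "interacting" in place of actin was corrected after it was seen. Probe sequences are those of the array files; gene names and chromosomes are from a RefSeq table of GRCm38.p6.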

Additional observations from a re-analysis of the deposited data

How the results depend on the processing

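None of the 7 members was called in the main setting, with quantile normalisation, the authors' deposited values, either filter on dim probes, outlier spots kept, 1 probe per gene name or the replicate block. The count was 1, Ppfia1, with normexp background correction, no scaling, an intensity trend in the prior variance and the methods' t-test at an unadjusted 0.05, and 2 of 11 (Eif1a and Csprs) with the level limit at 1. It was 0 in the 4 settings that left out 1 array (range 0 to 0), where the lone array is assumed to vary like the other group. Over all probes, 4973 were called, against 8784 without scaling (80.1% of them higher, against 48% in the scaled values), 1359 with no filter on dim probes, and 1449 to 4824 with 1 array left out: 4824 without control array 1, 3609 without control array 2, 1790 without 3MC+TPA array 1 and 1449 without 3MC+TPA array 2. The methods' t-test called 7267 at an unadjusted 0.05, 2849 of them with a 2-fold change and 29 after Benjamini-Hochberg adjustment; the main fit called 3560 with a 2-fold change. The members' median change was 0.30 without scaling, where the median of all probes was 0.36, and -0.20 over the 11 probes above a limit of 1; with 1 array left out it ran from -0.17 to 0.06. Without scaling, Palld changed sign to 0.17, B230369F24Rik to 0.15, AK154958 to 0.048, OTTMUSG00000007209 to 0.30, Kalrn to 0.34 and 1810007M14Rik to 0.14. Kalrn was at 0.014 with quantile normalisation. With 1 array left out, Palld ran from -0.41 without control array 2 to 0.055 without control array 1, Kalrn from -0.25 without 3MC+TPA array 1 to 0.23 without 3MC+TPA array 2, 1810007M14Rik from -0.46 to 0.035 without the same arrays, and OTTMUSG00000007209 from -0.17 without 3MC+TPA array 2 to 0.057 without 3MC+TPA array 1. The cause of these sign changes was not tested, and none of them was called. Same-numbered arrays did not deviate together (r = 0.0061 over 29207 probes), so the values showed no pairing by number. The labels give no pairing either, and whether same-numbered arrays were handled together cannot be told from these values. The replicate block gave 4242 called probes and 0 called members. No slide block was possible, because all arrays lay on 1 slide.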

Other observations

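Below the brightness limit, 43 further clone probes were tested. In exposed against control cells, 7 of them fell and 4 rose (limma, adjusted p under 0.05 over all probes). That is 25.6%, beside 15.5% of all tested probes called in either direction. Some of the 43 were not well above background on all 4 arrays and entered the test through 1 group alone. A call among those supports nothing. The Eif1a, Csprs and Nlrc3 clone probes named here were well above background on all 4 arrays. The clone AK139584, named Eif1a, a translation initiation factor that helps the small ribosomal subunit scan for the start codon, fell by 3.18 ± 0.18 on the log2 scale (SE), or 9.05-fold (adjusted p = 0.0011). The 2 curated probes of Eif1a gave -0.02 and 0.07 and were not called. Of the 2 probes of the related Eif1ay, 1 was lower at -0.74 and the other gave -0.10 without a call. Cross-hybridisation among these loci was not tested.

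The clone AK156961 of Csprs, a gene of a repeated mouse locus, fell 2.78-fold (adjusted p = 0.0069), and all 5 Csprs probes on the array were called lower, from -1.24 to -1.48. Here the clone, curated and model probes moved alike, and they may read near-identical copies. In the other direction, both probes of the clone AK084199 of Nlrc3, a cytosolic receptor-like protein that dampens immune signalling, were higher, at 1.99 ± 0.19 and 1.97 ± 0.16 (SE), and the curated Nlrc3 probe was higher at 1.24 ± 0.15 (SE). These genes were chosen after their values were seen.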
